A study of Mus musculus with 8 samples.

Results

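Vitamin A handling was followed through 8 genes in intestinal epithelial cells of mice: Rbp2, Lrat, Dhrs3, Aldh1a1, Aldh1a2, Aldh1a3, Aldh1a7 and Rarb. They were taken as a named list of genes of retinoid uptake, oxidation and binding, by gene symbol, and all 8 were on the array. They are 8 of 12393 measured genes and were read by 10 probe sets, 3 for Aldh1a3 and 1 for each of the others. Dietary vitamin A reaches the enterocyte as retinol, which is bound inside the cell, stored as a fatty acid ester, or oxidised in successive steps to retinaldehyde and retinoic acid. Retinoic acid then acts through nuclear receptors that pair with retinoid X receptors on DNA. In the small intestine this pathway supplies vitamin A to the body and is known for its part in epithelial differentiation and in the instruction of gut immune cells.

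RNA was measured on 8 Affymetrix arrays, 2 for each of 4 genotypes, all from mice of mixed C57BL/6 x 129Sv x FVB background that had received tamoxifen by gavage on 5 days, with cells taken on day 15 after the first dose. The groups were wild type controls (WT), IkkαAA/AA mice (IKKa-AA), mice with inducible β-catc.a., a stabilised β-catenin (bCATca), and β-catc.a./IkkαAA/AA mice (called double mutants below). IKKα, a kinase that acts in NF-κB signalling, cannot be activated in its AA form, a knock-in allele that is not limited to the epithelium, whereas the series' text places β-catenin stabilisation in the intestinal epithelial cells alone. The study asked how IKKα bears on the crypt expansion that follows β-catenin stabilisation, in which crypts grow at the cost of differentiated cells. The labels give neither the ages of the mice nor the driver of the inducible allele, and do not say that the 2 arrays of a group came from separate animals, so the p-values reflect only how far these samples spread, which may be technical.

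All values are log2 intensities, so a difference of 1 is a doubling, and a difference is the mean of one genotype minus the mean of another given with the model's standard error (SE) from a fit to all arrays. A gene was called at a limma adjusted p under 0.05 over all 12393 genes. A guide to the array background was taken from 14 measured genes of other organs, whose readings had a median of 3.46 and a 90th percentile of 5.09. A group mean at or under 5.09 is described as near background. Levels of different genes are not compared, because probe sets differ in response.

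The labelled tissue and genotype were checked first. All 9 genes of an epithelial identity list were above the background guide, with a summed intensity of 32017 to 36717 over the arrays, and 3 of 3 measured proximal small intestine genes were above it, against 0 of 3 distal ones. In bCATca against WT 1 of the 3 proximal genes was called higher (Cybrd1, 2.36). Of the 3 distal genes 1 was called lower (Osr2, -1.57, near background). Whether the gut region sampled was alike between genotypes was not tested. Of 12 measured Wnt targets, 8 were called higher in bCATca than in WT and 0 lower, with a median difference of 1.64. Of all genes, 5.74% were called higher and 3.55% lower in this comparison. IKKa-AA replicate 1 stood apart from replicate 2 of its group: it correlated best with double mutant replicate 2 (r = 0.9932 over probe sets) and replicate 2 with WT replicate 2 (r = 0.9935), against 0.9875 between the IKKa-AA replicates. For Aldh1a1 and Aldh1a7, IKKa-AA against WT and the interaction are given with both of these arrays and without each.

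In bCATca mice, 3 of the 8 retinoid genes were lower than in WT and 1 was higher. Aldh1a1 fell 21.8-fold and Aldh1a7 13.7-fold. Lrat fell by 1.45 and Rarb rose by 1.27 on the log2 scale, both between readings near background, where no fold is given. The test called 9.29% of all genes in this comparison, 3.55% lower and 5.74% higher. The median difference over the 8 members was -0.80, against 0.01 over all genes. The members were chosen with earlier results of these data known, so this contrast is a description and not a test. Dhrs3 and Rbp2 had unadjusted p under 0.05 but did not pass. That made 6 of 8 members at the unadjusted level, which 3648 of all 12393 genes met. Without IKKa-AA replicate 1 the test called 5 members, Dhrs3 added, and without WT replicate 1, WT replicate 2 or bCATca replicate 2 it called Rarb alone. Aldh1a2 and Aldh1a3, like Lrat and Rarb, were near background on every array.

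**Figure D1:**
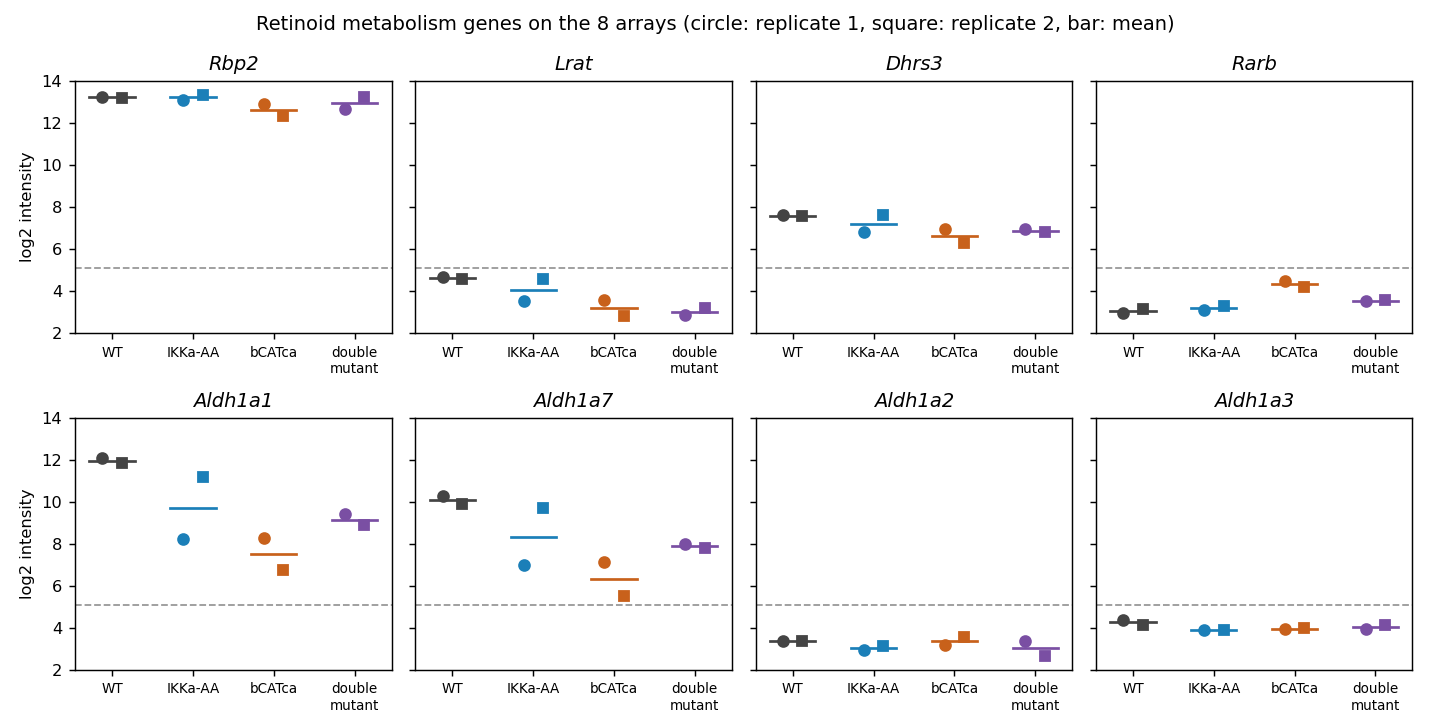
Log2 intensity of each of the 8 retinoid genes (vertical axis) by genotype (horizontal axis), with circles for replicate 1, squares for replicate 2, a bar at the mean of 2 arrays and a dashed line at the background guide of 5.09. Aldh1a1 and Aldh1a7 are highest in WT and spread widely between the IKKa-AA replicates, while Lrat, Rarb, Aldh1a2 and Aldh1a3 lie under the line in every group.

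Aldh1a1 encodes retinaldehyde dehydrogenase 1, which oxidises retinaldehyde to retinoic acid irreversibly. It read 12.06 and 11.85 for WT, 8.23 and 11.20 for IKKa-AA, 8.28 and 6.74 for bCATca and 9.42 and 8.88 for double mutants. Every bCATca and double mutant array was below every WT array, and the IKKa-AA replicates lay on both sides of the double mutants. In bCATca it fell by 4.45 against WT (SE 0.84, 95% interval -6.38 to -2.52, adjusted p = 0.0186). The call was lost without WT replicate 1 (adjusted p = 0.0975), WT replicate 2 (0.105) or bCATca replicate 2 (0.122, difference -3.68), and the adjusted p ranged from 0.000566 to 0.122 over all 16 alternatives tried.

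Aldh1a7 is a rodent paralogue of Aldh1a1 with little or no reported activity on retinaldehyde. Its readings were 10.29 and 9.89 for WT, 6.98 and 9.70 for IKKa-AA, 7.13 and 5.50 for bCATca and 8.0 and 7.78 for double mutants. The arrays fell in the same genotype order as for Aldh1a1, without overlap between WT and any other group. In bCATca it fell by 3.77 against WT (SE 0.80, 95% interval -5.60 to -1.95, adjusted p = 0.0266). This call was lost without WT replicate 1 (adjusted p = 0.122), WT replicate 2 (0.126), bCATca replicate 2 (0.161) or either double mutant array (0.0595), with a replicate block (0.0502) and with an offset of 16 added to the intensities (0.0553, difference -3.50).

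Aldh1a1 and Aldh1a7 lie next to each other on chromosome 19, with 3 annotated entries between them of which 0 are protein coding. Over the 8 arrays, which share 4 genotypes, Pearson's r between their log2 readings was 0.995. Whether either probe set also reads transcripts of the other gene was not tested. The 250 bases before the annotated start of each gene are shown because the genes moved together, in RefSeq's GRCm38.p6 assembly, with a run of 65 bases that both windows share in capitals, 94 to 30 bases before each start. Aldh1a1 has 2 annotated start windows, and the one shown is that with the longer run in common with Aldh1a7. The first is chr19:20601718-20601967 on the plus strand and the second chr19:20727557-20727806 on the minus strand.
Aldh1a1: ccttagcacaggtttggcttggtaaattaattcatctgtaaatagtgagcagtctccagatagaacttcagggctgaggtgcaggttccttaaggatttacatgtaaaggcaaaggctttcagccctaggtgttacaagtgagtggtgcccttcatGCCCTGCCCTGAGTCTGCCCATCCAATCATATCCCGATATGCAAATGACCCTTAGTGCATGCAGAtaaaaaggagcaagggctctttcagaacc
Aldh1a7: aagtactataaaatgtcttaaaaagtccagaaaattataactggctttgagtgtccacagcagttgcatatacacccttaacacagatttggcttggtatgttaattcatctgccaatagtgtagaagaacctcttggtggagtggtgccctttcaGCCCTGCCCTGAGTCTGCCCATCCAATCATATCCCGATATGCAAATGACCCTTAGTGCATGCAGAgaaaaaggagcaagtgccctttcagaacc
Over 235 aligned positions 175 bases matched, which is 70.0% of the 250-base window.

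Aldh1a2 and Aldh1a3 encode the other retinaldehyde dehydrogenases, of which Aldh1a2 is known from embryos, stroma and gut dendritic cells. Aldh1a2 read 3.35 and 3.37 for WT, 2.95 and 3.12 for IKKa-AA, 3.16 and 3.55 for bCATca and 3.38 and 2.67 for double mutants. All 8 readings were near background and those of WT and bCATca overlapped (difference -0.01, 95% interval -0.55 to 0.54, adjusted p = 0.989). The sign of this difference turned under quantile normalization and cyclic loess normalization. Aldh1a3 gave 4.36 and 4.14 for WT, 3.88 and 3.87 for IKKa-AA, 3.95 and 3.98 for bCATca and 3.93 and 4.12 for double mutants with its brightest probe set. WT lay above the other groups without overlap, by at most 0.37 in the means. Its lowest array was only 0.02 above the highest double mutant array. The Aldh1a3 difference in bCATca was -0.28 (SE 0.14, adjusted p = 0.221). Its 3 probe sets disagreed in sign: bCATca minus WT was -0.28, 0.08 and 0.09 in the fit of all probe sets.

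Rbp2 encodes cellular retinol-binding protein 2, the carrier of newly absorbed retinol in enterocytes. It read 13.25 and 13.20 for WT, 13.10 and 13.35 for IKKa-AA, 12.91 and 12.32 for bCATca and 12.66 and 13.22 for double mutants. Only the 2 bCATca arrays were both under the WT readings, and the double mutants overlapped both WT and bCATca. The bCATca difference was -0.61 (SE 0.24, 95% interval -1.16 to -0.05, adjusted p = 0.141). These readings were 0.32 to 1.29 under the highest on their array, so a compressed response at the top of the scale cannot be told apart from a small difference.

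Lrat encodes lecithin retinol acyltransferase, which esterifies retinol for storage and for export in chylomicrons. Its values were 4.66 and 4.59 for WT, 3.54 and 4.55 for IKKa-AA, 3.56 and 2.79 for bCATca and 2.85 and 3.17 for double mutants. Every bCATca and double mutant array was under the WT arrays, though all 8 readings were near background. Lrat fell by 1.45 in bCATca against WT (SE 0.34, 95% interval -2.24 to -0.66, adjusted p = 0.0385). With an offset of 16 added to the intensities the difference was -0.69 (adjusted p = 0.0656), and with cyclic loess normalization and a replicate block the adjusted p was 0.0504 and 0.0648. Leaving out WT replicate 1 gave 0.148, WT replicate 2 gave 0.172, bCATca replicate 2 gave 0.208 and either double mutant array gave 0.0715. Lrat therefore passed in 7 of 15 alternatives, with the same sign in 15.

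Dhrs3 encodes a retinaldehyde reductase that returns retinaldehyde to retinol and so opposes the formation of retinoic acid. It read 7.64 and 7.55 for WT, 6.80 and 7.60 for IKKa-AA, 6.94 and 6.27 for bCATca and 6.95 and 6.81 for double mutants. WT did not overlap with bCATca or the double mutants. The bCATca difference of -0.99 (SE 0.29, 95% interval -1.65 to -0.34, adjusted p = 0.0652) missed the threshold, and it passed when either IKKa-AA array was left out (adjusted p = 0.0201) or when WT and bCATca were fitted alone (0.0409). Over the 8 arrays, which share 4 genotypes, the values of Dhrs3 followed those of Aldh1a1 (Pearson's r = 0.97) and Lrat (0.92).

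Rarb encodes retinoic acid receptor beta, a nuclear receptor whose own gene is a known target of retinoic acid. It read 2.96 and 3.15 for WT, 3.08 and 3.31 for IKKa-AA, 4.46 and 4.19 for bCATca and 3.51 and 3.56 for double mutants. The 4 arrays with stabilised β-catenin were above the other 4, and the bCATca arrays were above the double mutants, but no reading exceeded the background guide. Rarb rose by 1.27 in bCATca against WT (SE 0.16, 95% interval 0.91 to 1.63, adjusted p = 0.0035). It passed in all 15 alternatives tried for it, with differences of 0.57 to 1.40 and a highest adjusted p of 0.0364. The 0.57 came from the offset of 16, which lowers differences between dim readings.

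The region before the start of Rarb is printed because it holds a retinoic acid response element, the arrangement that joins this receptor family to its targets. The window is the 250 bases at chr14:16575477-16575726 on the minus strand of GRCm38.p6 in RefSeq. The capitals mark 17 bases, 53 to 37 bases before the start, made of a pair of half-sites with 5 bases between them.
Rarb: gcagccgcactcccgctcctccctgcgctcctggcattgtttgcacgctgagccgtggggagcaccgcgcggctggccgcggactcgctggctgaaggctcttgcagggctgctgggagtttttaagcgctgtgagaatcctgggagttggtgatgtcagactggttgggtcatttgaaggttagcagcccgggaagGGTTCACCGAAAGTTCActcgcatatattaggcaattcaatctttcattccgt
Half-sites searched were AGGTCA, its variant AGTTCA, the form GGGTCA and finally the form GGTTCA, on both strands, as direct repeats spaced by 1, 2 or 5 bases. The 5-base spacing was found in 0.0883% of 32851 annotated windows of this length, the 2-base spacing in 0.174% and the 1-base spacing in 0.164%. The half-sites searched included both of those in the Rarb element, so its match was given by the choice of letters. Aldh1a3 had no window in the table. The letters CTTTGA, the core recognised by the TCF factors that carry β-catenin to DNA, were found on either strand in windows of Aldh1a1, Aldh1a7, Rbp2 and Dhrs3, and in 13.8% of all windows. For Aldh1a1 they were in the window that is not printed. These are matches of letters and not measured sites.

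**Figure D2:**
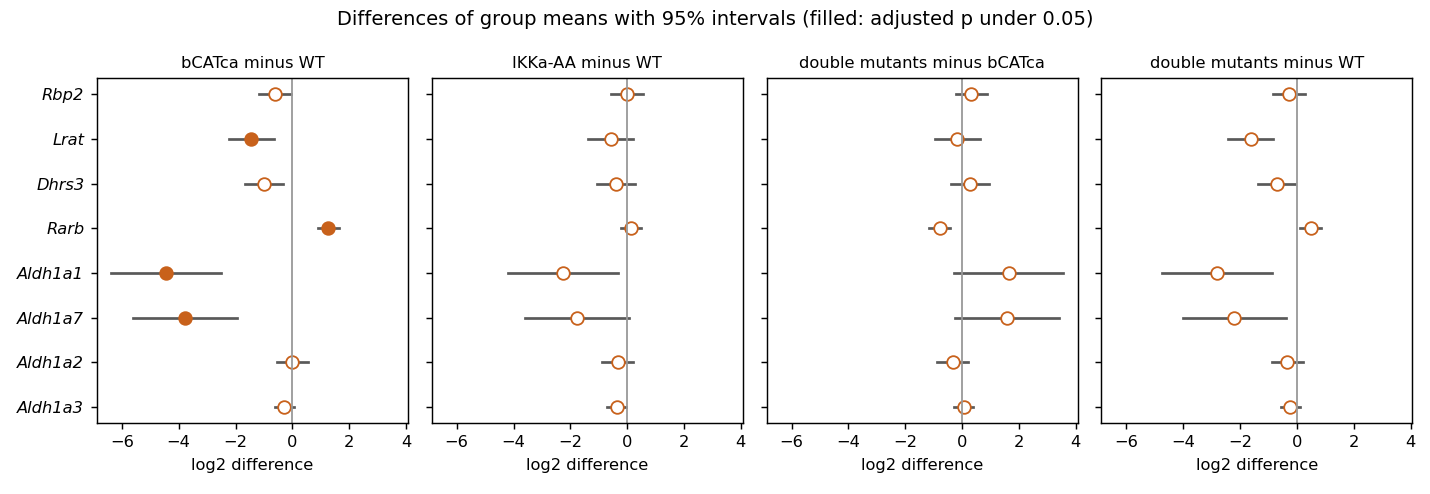
Difference of group means in log2 intensity (horizontal axis) for each retinoid gene (vertical axis) in 4 comparisons, with 95% intervals from the model, and filled points for an adjusted p under 0.05. Filled points are Aldh1a1, Aldh1a7, Lrat and Rarb in bCATca against WT, and the intervals of Aldh1a1 and Aldh1a7 are the widest in each comparison.

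The IKKα allele alone was compared with WT to ask whether it moves these genes without β-catenin stabilisation. No member was called in IKKa-AA against WT, where 0.00807% of all genes were called, and 2 of 8 members had an unadjusted p under 0.05 (Aldh1a1 and Aldh1a3). Of all 12393 genes, 1449 met that unadjusted level. The difference was -2.25 for Aldh1a1 (SE 0.84, adjusted p = 0.369) and -1.75 for Aldh1a7 (SE 0.80, adjusted p = 0.437). Both came mostly from replicate 1: for Aldh1a1 it lay at -3.73 from the WT mean, and replicate 2 at -0.76. Without IKKa-AA replicate 2 the differences were -3.73 (adjusted p = 0.0119) and -3.11 (adjusted p = 0.0247), both past the threshold on a single array, and without replicate 1 they were -0.76 (adjusted p = 0.953) and -0.39 (adjusted p = 0.999). Dhrs3 and Lrat were also lower on replicate 1, at -0.79 and -1.08 from the WT mean, than on replicate 2, at 0.0 and -0.07. For Rbp2 the difference was 0.00 (95% interval -0.56 to 0.56), and for Rarb 0.14 (95% interval -0.22 to 0.50).

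Double mutants were compared with bCATca to ask what the IKKα allele changes once β-catenin is stabilised. No member passed, with 1.21% of all genes called. An unadjusted p under 0.05 was met by 1832 of all 12393 genes and by 1 of the 8 members. That gene was Rarb, at -0.79 (SE 0.16, adjusted p = 0.0608), and it passed without either IKKa-AA array (adjusted p = 0.0331). Aldh1a1 was higher on both double mutant arrays than on both bCATca arrays, but its difference of 1.64 (SE 0.84, 95% interval -0.29 to 3.57, adjusted p = 0.412) did not pass. The same held for Aldh1a7, at 1.58 (SE 0.80, adjusted p = 0.405). Lrat differed by -0.17 (95% interval -0.96 to 0.62) and Dhrs3 by 0.28 (95% interval -0.38 to 0.94), with overlapping arrays.

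Against WT, the double mutants had 5 of 8 members at an unadjusted p under 0.05 and none past the adjusted threshold, where 1.44% of all genes were called. Of all 12393 genes, 2099 met the unadjusted level. The difference was -2.81 for Aldh1a1 (SE 0.84, adjusted p = 0.144), -2.20 for Aldh1a7 (adjusted p = 0.217), -1.62 for Lrat (adjusted p = 0.0662), -0.71 for Dhrs3 (adjusted p = 0.259) and 0.48 for Rarb (adjusted p = 0.176). When only WT and double mutants were fitted, 4 members passed: Aldh1a1 (adjusted p = 0.000311), Aldh1a7 (0.000596), Lrat (0.00143) and Dhrs3 (0.0282). Without either IKKa-AA array 3 passed, with adjusted p of 0.00679, 0.0236 and 0.00711 for Aldh1a1, Aldh1a7 and Lrat. The differences were the same in these fits, which keep the spread between the IKKa-AA arrays out of the shared error.

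The 2 remaining contrasts called no member either. Double mutants against IKKa-AA called 0.0565% of all genes, and 859 of all 12393 genes had an unadjusted p under 0.05. Of the 8 members 1 met that level, namely Lrat at -1.04 (SE 0.34, adjusted p = 0.577). Its difference ran from -1.54 to -0.46 over the 15 alternatives tried. Aldh1a1 differed there by -0.56, and by -2.05 to 0.92 with an array left out, the 0.92 being without IKKa-AA replicate 2. The interaction is the β-catenin difference in IKKa-AA arrays (double mutants minus IKKa-AA) less the one seen without the allele (bCATca minus WT). It called 0.0888% of all genes. The interaction had an unadjusted p under 0.05 for 3 members (Aldh1a1, Aldh1a7 and Rarb), beside 1950 of all 12393 genes. It was 3.88 for Aldh1a1 (SE 1.19, adjusted p = 0.203), 3.33 for Aldh1a7 (SE 1.13, adjusted p = 0.23) and -0.93 for Rarb (SE 0.22, adjusted p = 0.129). Without IKKa-AA replicate 2 it passed for Aldh1a1 (5.37, adjusted p = 0.0111) and Aldh1a7 (4.69, adjusted p = 0.0223), and without replicate 1 it was 2.40 (adjusted p = 0.187) and 1.97 (adjusted p = 0.294). With all arrays, a difference between genotypes in the β-catenin response passed for none of the 8 genes. The comparisons named here share their WT, bCATca or IKKa-AA arrays and are not independent of each other.

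The other genes of the pathway were read from 6 lists, of which 44 of 53 genes were measured. In bCATca against WT, 5 were called lower and 1 higher, which is 13.6% of the 44 beside 9.29% of all genes (3.55% lower and 5.74% higher), and the median difference was -0.30. These lists were also chosen with earlier results of these data known, so the shares are a description. Of these 44, 31 were above the background guide in a group, with a median of -0.49. Rbp7, Rdh7, Retsat, Lipe and Aldh8a1 fell and Tgm2 rose.

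Rdh7, a short-chain dehydrogenase that oxidises retinol, fell 10.6-fold. It read 11.57 and 11.18 for WT, 9.04 and 10.89 for IKKa-AA, 8.78 and 7.15 for bCATca and 9.21 and 9.10 for double mutants. The bCATca decrease of Rdh7 was -3.41 (SE 0.63, adjusted p = 0.0166), with no overlap with WT, and it did not pass without WT replicate 1 (adjusted p = 0.0965), WT replicate 2 (0.0876) or bCATca replicate 2 (0.099). Of the 15 retinol dehydrogenases measured, Rdh7 was the only one called, which is 6.67% beside 9.29% of all genes, and the median was -0.50. A dimmer probe set of Dhrs4 passed in the fit of all probe sets (-0.79, adjusted p = 0.0381), while its brightest did not (-0.77).

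Rbp7, a further cellular retinol-binding protein, read 7.92 and 7.74 for WT, 8.01 and 7.51 for IKKa-AA, 5.62 and 5.67 for bCATca and 7.55 and 6.83 for double mutants. The bCATca arrays were the lowest for Rbp7, without overlap with any other genotype. It fell by 2.18 in bCATca against WT (SE 0.25, adjusted p = 0.00265), past the threshold in all 16 alternatives. Rbp7 was the only gene of these 44 called in double mutants against bCATca, beside 1.21% of all genes. It rose there by 1.54 (SE 0.25, adjusted p = 0.0344). This call was kept in 10 of 16 alternatives, and not all of those that lost it left out an array. That call was lost without either WT array (adjusted p = 0.072), bCATca replicate 1 (0.131), bCATca replicate 2 (0.173) or double mutant replicate 1 (0.177, difference 1.18), and the interaction for Rbp7 was 1.61 (SE 0.36, adjusted p = 0.114). The remaining binding and transport genes, 11 of the 12 measured, were not called on their brightest probe sets. In bCATca against WT 8.33% of this list was called, beside 9.29% of all genes. Cd36, a fatty acid and carotenoid uptake receptor singled out here after its values were seen, had the largest difference among them at -2.97 (SE 0.97, adjusted p = 0.0872). In the fit of all probe sets its differences were -2.97, -3.42 and -2.93, and the last passed (adjusted p = 0.022). On its brightest probe set, Cd36 read 9.56 and 9.53 for WT, 4.92 and 8.41 for IKKa-AA, 7.40 and 5.74 for bCATca and 6.14 and 6.76 for double mutants. Cd36 differed from WT by -2.87 (SE 0.97) in IKKa-AA, mostly from replicate 1, and by -3.09 (SE 0.97) in double mutants. Neither passed (adjusted p = 0.358 and 0.157).

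Of 4 measured genes of retinyl ester formation, hydrolysis and saturation, 2 were called lower in bCATca against WT, beside 3.55% of all genes. Retsat, which saturates a double bond of retinol, fell by 1.48 (SE 0.36, adjusted p = 0.0401), from 10.17 and 9.87 in WT to 8.92 and 8.17 in bCATca. Lipe, the hormone-sensitive lipase, which also hydrolyses retinyl esters, fell by 1.31 (SE 0.21, adjusted p = 0.0106), from 8.10 and 8.02 to 6.97 and 6.53. Neither gene's WT and bCATca arrays overlapped. Retsat passed in 9 of 16 alternatives and Lipe in 13. The settings that lost the Retsat call were not only those with an array left out. Without WT replicate 1, WT replicate 2 or bCATca replicate 2, the adjusted p was 0.166, 0.148 and 0.217 for Retsat and 0.0736, 0.0703 and 0.0796 for Lipe, and Retsat also missed the threshold without either double mutant array (0.0755).

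Aldh8a1, a dehydrogenase that can oxidise retinaldehyde, read 6.13 and 5.73 for WT, 4.58 and 4.90 for IKKa-AA, 4.53 and 4.69 for bCATca and 4.49 and 4.62 for double mutants. WT alone was above the background guide. Aldh8a1 fell by 1.32 in bCATca against WT (SE 0.18, adjusted p = 0.00549), past the threshold in all 16 alternatives. It also fell by 1.38 in double mutants against WT (SE 0.18, adjusted p = 0.0191), past the threshold in 11 of 16 and not with the offset of 16. The latter did not pass without WT replicate 1 (adjusted p = 0.141), WT replicate 2 (0.0616), double mutant replicate 1 (0.15) or double mutant replicate 2 (0.143). Cyp26a1, which degrades retinoic acid and is a sensitive target of it, stayed near background on all 8 arrays at 3.28 to 3.61.

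Tgm2, tissue transglutaminase, is inducible by retinoic acid in other settings and read 8.80 and 8.45 for WT, 10.20 and 8.90 for IKKa-AA, 9.79 and 10.88 for bCATca and 10.34 and 10.22 for double mutants. Its rise of 1.71 in bCATca (SE 0.44) lay at the threshold, at an adjusted p that rounds to 0.05. Tgm2 had 6 probe sets, whose differences ran from 0.06 to 1.77. In the fit of all probe sets its brightest did not pass (adjusted p = 0.0542), and of the others only that with 1.77 did (0.0435). Tgm2 passed in 6 of 16 alternatives. Its call was lost without WT replicate 1 (adjusted p = 0.134), WT replicate 2 (0.24), bCATca replicate 2 (0.25) or either double mutant array (0.088). Nrip1, also listed as responsive to retinoic acid, was not called on its brightest probe set (-0.49, adjusted p = 0.11). A dimmer set passed in the fit of all probe sets (-0.90, adjusted p = 0.0226). In bCATca against WT, 9.29% of all genes were called. None of the 5 other retinoic acid and retinoid X receptor genes (Rara, Rarg, Rxra, Rxrb and Rxrg) was called there, and 0 of them had an unadjusted p under 0.05.

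**Figure D3:**
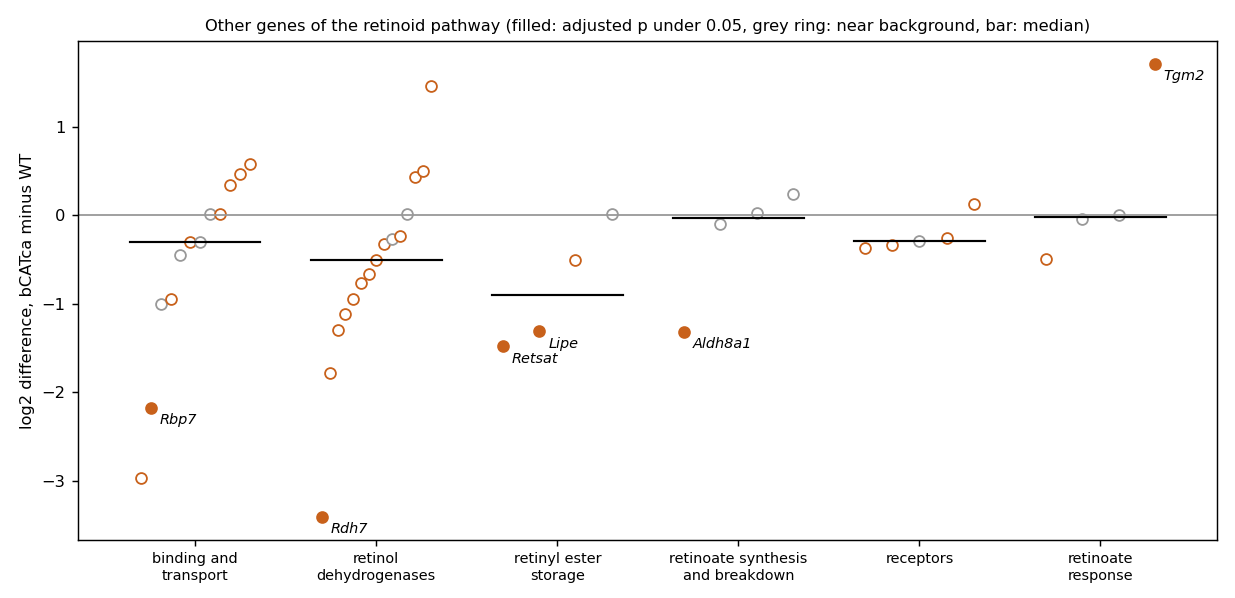
Difference of bCATca minus WT in log2 intensity (vertical axis) for the 44 other measured retinoid pathway genes in 6 lists (horizontal axis), with filled points for genes past the threshold, grey rings for genes near background in every group and bars for list medians. The 6 filled points are Rbp7, Rdh7, Retsat, Lipe and Aldh8a1 below 0 and Tgm2 above it.

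Markers of enterocytes, the absorptive cells that take up vitamin A, were also lower in bCATca than in WT. In bCATca against WT, 3.55% of all genes were called lower and 5.74% higher. Of 13 measured enterocyte genes, all above the background guide, 6 were called lower and 0 higher, with a median of -0.77. Their summed intensity was 79891 to 82654 in WT, 61637 to 78421 in IKKa-AA, 40337 to 58015 in bCATca and 59282 to 68610 in double mutants. Relative to the WT mean, the list's median was -0.62 and -0.93 on the bCATca arrays, -0.44 and -0.03 on the IKKa-AA arrays, and -0.45 and -0.17 on the double mutant arrays. In such bulk samples, fewer cells of a type and less RNA per cell cannot be told apart. The part of the enterocyte share in the changes of Aldh1a1, Aldh1a7, Lrat and Dhrs3 was not tested.

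Of 8 T cell genes, 7 were measured, and their summed intensity ran from 6321 to 8195 in WT, 1940 to 7321 in IKKa-AA, 3935 to 5151 in bCATca and 744 to 1011 in double mutants. None of the 7 was called in bCATca against WT, where their median was -0.81. In double mutants against WT 4 were called lower, beside 1.44% of all genes called there. Relative to the WT mean, the T cell list's median was -1.96 and -0.01 on the IKKa-AA arrays. It was -0.49 and -1.13 on the bCATca arrays and -2.97 and -3.26 on the double mutant arrays. Of 11 stroma genes 7 were near background in every group, among them Col1a1, Col1a2 and Pdgfra, and the list summed to 325 to 406 in WT and 409 to 465 in bCATca. The higher sum does not hold for most of the list. In bCATca against WT 7 genes were below 0 and 4 above, with a median of -0.02, 1 called lower and 1 higher. Vim, among those above 0, read 7.01 and 6.10 in WT and 7.93 and 7.58 in bCATca. The dendritic and myeloid list, from cells known to express Aldh1a2, had 7 of 10 genes near background and summed to 220 to 251 over WT and bCATca. Among quality controls, the 3' probe set of 18S ribosomal RNA read 11.31 and 11.69 for WT, 12.39 and 12.35 for IKKa-AA, 11.97 and 12.15 for bCATca and 11.77 and 12.07 for double mutants. Gapdh's 3' minus 5' signal was -0.01 and 0.05 in bCATca against -0.24 to -0.12 elsewhere. That of β-actin was 0.62 and 0.63 in bCATca, inside the 0.37 to 0.77 of the other groups. The part of T cells and of RNA quality in the retinoid results was not tested.

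**Figure D4:**
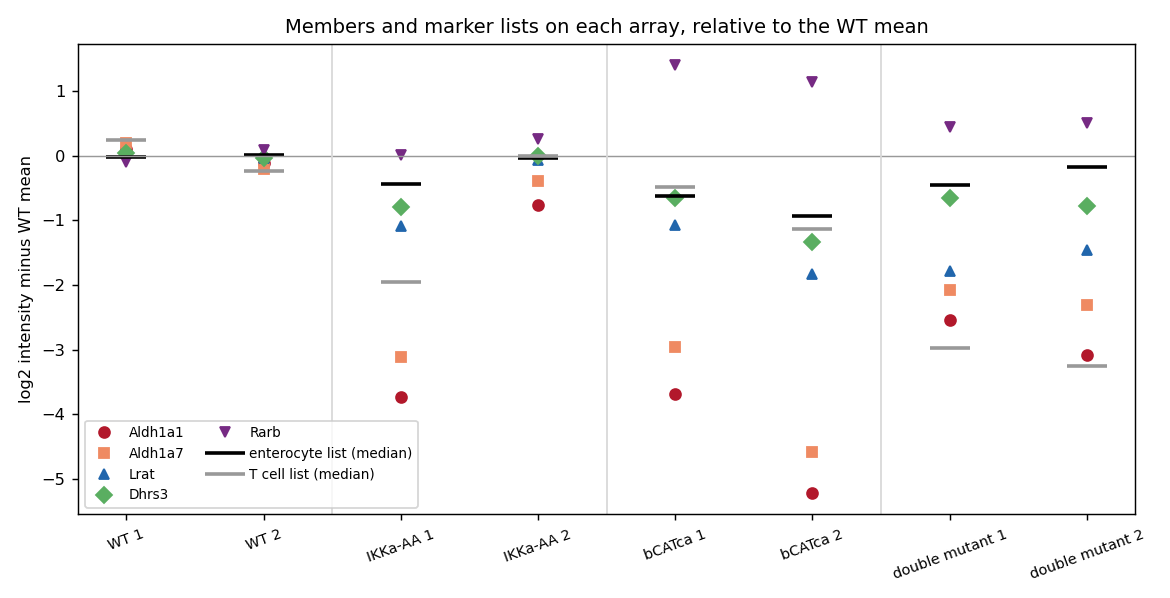
Log2 intensity minus the WT mean (vertical axis) on each of the 8 arrays (horizontal axis) for Aldh1a1, Aldh1a7, Lrat, Dhrs3 and Rarb, with bars for the median of the enterocyte and T cell lists. Aldh1a1 is at -3.73 on IKKa-AA replicate 1 and -0.76 on replicate 2, and Rarb is at 1.40 and 1.14 on the bCATca arrays.

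Genes with the most similar pattern to the 4 called members were sought among 2180 genes whose highest and lowest arrays differed by at least 1, by Pearson's r over the 8 arrays, which share 4 genotypes. For Aldh1a1 they were Ephx2 (r = 0.992), Ttc39c (0.991) and Msra (0.989), and for Aldh1a7 Slc27a2 (0.993), Prxl2a (0.993) and Ephx2 (0.992). Ephx2, a soluble epoxide hydrolase, read 11.63 and 11.58 for WT, 10.40 and 11.31 for IKKa-AA, 10.31 and 9.58 for bCATca and 10.58 and 10.54 for double mutants. It shares with Aldh1a1 the gap between the IKKa-AA replicates. The closest to Rarb were Ggh (0.990), Cited1 (0.988) and Fstl1 (0.983). Cited1, a transcriptional cofactor, read 2.96 and 3.19 for WT, 3.16 and 3.39 for IKKa-AA, 6.64 and 6.13 for bCATca and 4.22 and 4.81 for double mutants, the same order of genotypes as Rarb. The closest to Lrat were Gip (0.978), Lactb (0.978) and Fbxo25 (0.972).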

How the data were processed

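Intestinal epithelial RNA from 8 mouse arrays (4 genotypes, 2 arrays each) was used as the linear intensity values per probe set that the authors deposited. RMA and the affy package were used per the submitters' processing notes, with versions not given in the sources used here. The log2 of each intensity was taken. Of 22690 probe sets, 20380 carried 1 symbol in the platform annotation, 691 several, 1555 none and 64 were controls. Symbols of 20351 were updated through the Entrez ID and of 1 through an accession, and 28 kept the platform's. The probe set with the highest mean stood for a gene. limma 3.58.1 (R 4.3.3; lmFit, eBayes, residual degrees of freedom 4, prior 4.28) was fitted to all arrays and p-values adjusted by Benjamini-Hochberg over 12393 genes. In simulated data for bCATca against WT, with 200 changed among 12393 genes, 72% of changes of 1 and 97% of changes of 2 (log2) were recovered. Median intensities were 50.9 to 53.8 and precision is limited by the number of arrays. The members and lists were chosen with earlier results of these data known. Named genes were all members, every other listed pathway gene past the test, and the 3 genes nearest each called member by correlation, with exceptions stated. Alternatives covered normalization, dim genes, an offset, probe sets, the variance trend, a replicate block, the groups fitted and each array left out. The IKKα gene itself was not analysed here. Tables and figures used Python 3.11.15, pandas 2.3.3, numpy 2.4.6, scipy 1.17.1 and matplotlib 3.10.9.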

Additional observations from a re-analysis of the deposited data

How the results depend on the processing

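With 2 arrays a genotype, most calls on the retinoid genes depended on single arrays, and readings near the background limit what Lrat, Rarb, Aldh1a2 and Aldh1a3 can show. The 4 members called in bCATca against WT became 2 without dim genes (Aldh1a1 and Aldh1a7; 4 of the 8 members were then tested), 2 with an offset of 16 and 2 with a replicate block (Aldh1a1 and Rarb in both), and 1 to 5 when an array was left out. Without WT replicate 1, WT replicate 2 or bCATca replicate 2 the 1 was Rarb. Elsewhere the main count was 0: leaving out an array gave 0 to 2 in IKKa-AA against WT, 0 to 1 in double mutants against bCATca, 0 to 3 in double mutants against WT and 0 to 2 in the interaction, and fitting WT and double mutants alone gave 4.

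Over all genes, the counts of 1151, 1, 150, 7, 179 and 11 (in order: bCATca and IKKa-AA, each against WT, the double mutants against bCATca, IKKa-AA and WT, and the interaction) became 701, 1, 72, 0, 71 and 6 with the replicate block. Unadjusted p under 0.05 was met by 3648, 1449, 1832, 859, 2099 and 1950 genes. With an array left out the ranges were 223 to 1885, 0 to 325, 11 to 395, 0 to 159, 7 to 661 and 0 to 234. IKKa-AA against WT gave 0 without dim genes, with the offset, and with the compared groups alone. Double mutants against IKKa-AA gave 0 in these 3 settings and 1 with probe sets averaged. Fitting the compared groups alone gave 331 for double mutants against bCATca and 816 against WT, the latter 0 with the offset. The interaction gave 17 with quantile normalization, 52 with a variance trend and 7 with the offset. The cause of these shifts was not tested.

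Signs turned for Aldh1a2 in bCATca against WT (0.08 with quantile normalization, 0.07 with cyclic loess, -0.20 to 0.19 with an array left out), and, with an array left out, for differences that had not passed: in double mutants against IKKa-AA Aldh1a1 (-2.05 to 0.92), Aldh1a7 (-1.81 to 0.91) and Dhrs3 (-0.72 to 0.08), in double mutants against bCATca Dhrs3 (-0.06 to 0.61) and Lrat (-0.55 to 0.22), and Lrat in the interaction (-0.10 to 0.91). Rbp2 in IKKa-AA against WT, at 0.00 with no sign of its own, ran from -0.12 to 0.12. Same-numbered arrays of different genotypes did not deviate in the same direction (correlations of deviations -0.45 to 0.15), so the numbers were not taken to pair samples. The -0.45 was between IKKa-AA and bCATca, so IKKa-AA replicate 1 deviated in part as bCATca replicate 2 did. Aldh1a1, Aldh1a7, Lrat and Dhrs3 were each lower on these arrays than on the other array of the same group. What these arrays share was not tested.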
